A study of Homo sapiens with 6 samples.

Results

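Hepatocyte lineage transcription factors are described here in HepG2, a human hepatoma cell line, after treatment with a leaf extract. The set consisted of FOXA1, FOXA2, FOXA3, CEBPA, ONECUT1, ONECUT2, PROX1 and A1CF, and nuclear receptors were left out of it. Its members were taken as the rows of the array table that the platform annotation gives exactly 1 symbol, where that symbol is 1 of these 8. Each gene had 1 such row, called a transcript cluster, so the set held 8 of 19291 tested clusters, or 8 of 18372 genes. None of the 8 was at 0 on the arrays. The leaf-treated group was 3 arrays of HepG2 cells given the water leaf extract of B. racemosa, a tropical plant, at 50 µg/ml for 24 h. The untreated group was 3 arrays of HepG2 cells without the extract. Cells of both groups were grown in DMEM with foetal bovine serum, penicillin and streptomycin, and their RNA was read on the Human Gene 1.0 ST array of Affymetrix. No vehicle control is described in the labels. The labels call the replicates biological but name no separate cultures, so each p-value reflects only the spread among these arrays, which may be technical.

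The hepatocyte identity is kept by a small network of DNA-binding proteins that bind each other's genes as well as those of liver enzymes and plasma proteins. FOXA1, FOXA2 and FOXA3 are forkhead proteins, of which FOXA1 and FOXA2 are known as pioneer factors that open liver chromatin early in development. CEBPA encodes C/EBPα, a leucine zipper protein of the mature hepatocyte that also restrains its proliferation. ONECUT1 (HNF-6) and ONECUT2 carry a cut domain and a homeodomain and act in the development of hepatocytes and bile ducts. PROX1 is a homeodomain protein that is needed, in the mouse, for hepatocytes to migrate out of the liver bud. A1CF is not a DNA-binding factor but an RNA-binding protein, first described as the partner of APOBEC1 in editing the mRNA of apolipoprotein B, and it stands in the set as a gene of the hepatocyte lineage.

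The arrays had similar medians but not the same spread of values. The median over tested clusters was 3.75 to 3.83 (log2 value) on leaf-treated arrays and 3.71 to 3.74 on untreated arrays. The lower and upper quartiles were 3.14 and 5.19 on leaf-treated array 1 and 3.14 and 5.18 on array 3. They were 3.05 and 5.34 on leaf-treated array 2, and 3.03 to 3.08 and 5.26 to 5.34 on untreated arrays. The part of this narrower spread of leaf-treated arrays 1 and 3 in the changes below was not tested. Leaf-treated arrays varied more between replicates, with a median SD of 0.14 over all clusters, against 0.087 in untreated arrays. Leaf-treated array 2 lay nearest to the untreated arrays, with a median absolute difference of 0.086 from the untreated mean, while leaf-treated arrays 1 and 3 differed by 0.13 and 0.14. Its mean correlation over clusters was 0.987 with the other leaf-treated arrays and 0.992 with the untreated arrays. The arrays have no detection calls. The 95th percentile over 378 olfactory receptor clusters, which stood in for background, was 3.26 to 3.49 on leaf-treated arrays and 3.22 to 3.35 on untreated arrays. All 8 members were above it on all 6 arrays. The 16 hepatocyte marker genes, ALB among them, were also above it on all arrays, so that the labelled cell type had its markers.

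Among the 8 members, A1CF showed the clearest difference. It was 1.39 fold lower in leaf-treated cells, with a 95% interval of 1.14 to 1.69 fold lower, and its groups did not overlap. FOXA1 was 1.12 fold lower and FOXA3 1.11 fold higher, also with groups that did not overlap, while the intervals of both reached 0. The means of CEBPA, ONECUT1, ONECUT2, PROX1 and FOXA2 differed by 1.01 to 1.07 fold between groups that overlapped. No member passed the adjusted p of 0.05 in limma, and over all clusters 1 was called, a share of 0.00518%. At an unadjusted p under 0.05 in the same fit, 1 of 8 members was lower, where 5.9% of all clusters were lower by this rule. No member was higher by it, where 3.87% of all clusters were. No member reached both an unadjusted p under 0.05 and a change of 1.5 fold, the thresholds of the series' design, which 0.84% of all clusters reached. The groups did not overlap for 3 of 8 members, where this held for 13.5% of all clusters. With 8 genes, a count of 1 or 3 is no result about the set. The median log2 fold change was -0.0031 over the members and 0.0108 over all clusters, with 4 members on each side of 0.

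**Figure D1:**
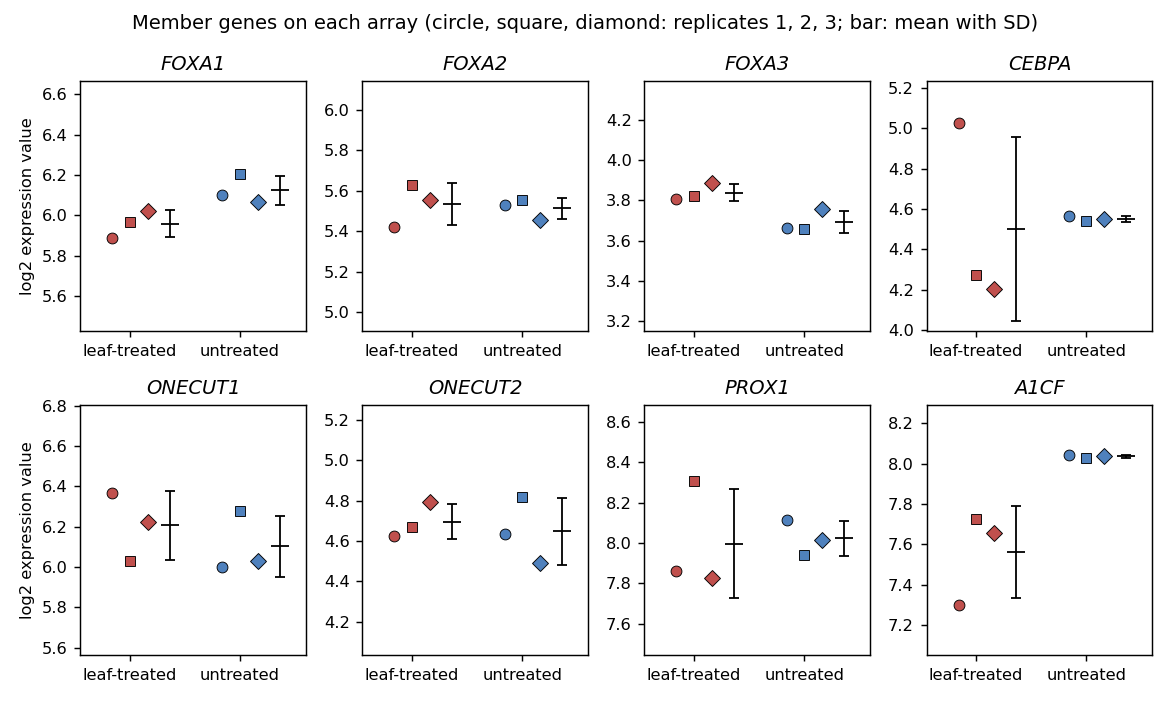
Log2 expression value (vertical axis, of equal span in each panel) of the 8 genes on the 3 leaf-treated (red) and 3 untreated (blue) arrays, with symbols for the replicate number and bars for the mean with SD. A1CF lies between 7.30 and 7.72 on leaf-treated arrays, below the untreated arrays near 8.04, while CEBPA is high on leaf-treated array 1 and low on the other two.

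A1CF had log2 values of 7.30, 7.72 and 7.66 on leaf-treated arrays 1 to 3 and of 8.04, 8.03 and 8.04 on the untreated arrays. All leaf-treated arrays were below all untreated arrays, and array 1 was the lowest of them, 0.73 under the untreated mean, where arrays 2 and 3 were 0.31 and 0.38 under it. The means were 7.56 ± 0.23 in leaf-treated cells and 8.04 ± 0.007 in untreated cells (SD, n = 3 each). The untreated SD was among the smallest, since 4.92% of all clusters had one as small. The log2 fold change was -0.48 (standard error 0.12, 95% interval -0.76 to -0.19), at an unadjusted p of 0.0056 and an adjusted p of 0.40 from limma. In absolute size it exceeded that of 97.7% of the clusters tested. The A1CF cluster is annotated with 6 RefSeq mRNAs, so that a change of isoform cannot be told apart from a change of the total.

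The sequences upstream of the 3 members whose groups did not overlap are shown because they differ widely in base composition. Promoters from RefSeq (GRCh38.p14) were found for 6 of the 8 members, namely FOXA1, FOXA3, CEBPA, ONECUT1, ONECUT2 and A1CF, and the 250 bases before the annotated start were read for each, with 1 start per gene. The files of this study hold no coordinates and no measurement at these positions. A1CF (chr10:50885628-50885877, minus strand) held 35.6% G and C with 4 CpG sites. FOXA1 (chr14:37595250-37595499, minus strand) held 67.2% with 26 and FOXA3 (chr19:45864076-45864325, plus strand) 75.2% with 28, where the median over 27305 promoters was 58.0% with 11. The sequences run 5′ to 3′ on the strand of the gene, with capitals for the motifs given after them.
A1CF: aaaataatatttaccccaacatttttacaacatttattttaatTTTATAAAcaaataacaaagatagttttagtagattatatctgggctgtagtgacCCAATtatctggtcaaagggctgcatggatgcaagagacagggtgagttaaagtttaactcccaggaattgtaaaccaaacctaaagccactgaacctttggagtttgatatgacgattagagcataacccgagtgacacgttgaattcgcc
FOXA1: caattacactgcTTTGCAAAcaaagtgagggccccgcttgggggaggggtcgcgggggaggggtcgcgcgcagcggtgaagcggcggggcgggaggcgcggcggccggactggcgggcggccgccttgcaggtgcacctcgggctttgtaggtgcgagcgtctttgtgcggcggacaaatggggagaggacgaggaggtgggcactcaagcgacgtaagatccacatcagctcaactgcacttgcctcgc
FOXA3: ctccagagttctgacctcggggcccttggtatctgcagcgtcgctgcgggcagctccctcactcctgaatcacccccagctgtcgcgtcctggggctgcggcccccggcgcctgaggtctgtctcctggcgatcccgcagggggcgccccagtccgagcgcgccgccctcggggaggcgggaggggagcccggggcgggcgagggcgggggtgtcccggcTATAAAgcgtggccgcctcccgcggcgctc

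Motif matches were sought on both strands, with overlapping matches kept. The TATA box (TATAAA) was found in 3 of the 6 promoters, against 11.1% of all promoters. In CEBPA and FOXA3 it lay at positions -30 to -25 from the start, the usual place of this element, and in A1CF matches on both strands overlapped between positions -207 and -200. The CCAAT box (CCAAT) was found in A1CF and ONECUT1, 2 of the 6, against 33% of all promoters. A C/EBP motif (TTGCNNA) was found in 1 of the 6, FOXA1, in overlapping matches on both strands, against 29.3% of all promoters. The E box (CACGTG) was found in 1, ONECUT1, against 6.49%. The motifs used for FOXA (TGTTTAC), HNF-6 (ATTGAT) and HNF4 (CAAAGTC) matched none of the 6, and 2.98%, 5.69% and 2.94% of all promoters. These letters say nothing of binding in HepG2 cells.

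The FOXA genes gave small changes in different directions. FOXA1 had log2 values of 5.89, 5.97 and 6.02 on leaf-treated arrays and of 6.10, 6.21 and 6.07 on untreated arrays. The groups did not overlap, although the highest leaf-treated value and the lowest untreated value, both from arrays 3, lay close together. For FOXA1 the log2 fold change was -0.17 (standard error 0.07, 95% interval -0.34 to 0.01, adjusted p = 0.51 from limma). FOXA3 had log2 values of 3.81, 3.82 and 3.88 on leaf-treated arrays and of 3.67, 3.66 and 3.76 on untreated arrays. Here the leaf-treated arrays were all higher, by 0.12 to 0.19 over the untreated mean, at a level not far above that of olfactory receptor genes. Its log2 fold change was 0.15 (standard error 0.06, 95% interval -0.01 to 0.30, adjusted p = 0.51 from limma). FOXA2 had log2 values of 5.42, 5.63 and 5.55 on leaf-treated arrays and of 5.53, 5.55 and 5.45 on untreated arrays. These overlapped, and the interval of the log2 fold change of 0.02 ran from -0.16 to 0.21. Changes of FOXA2 and FOXA3 beyond 1.5 fold in either direction, a log2 fold change of 0.58, lay outside these intervals, as did those of FOXA1.

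Ratios between family members on the same array are free of a constant shift of the array's log2 values, though not of a normalization that acts by intensity, and 4 were computed after the values had been seen. The log2 ratio of FOXA3 to FOXA1 was -2.08, -2.15 and -2.14 on leaf-treated arrays and -2.44, -2.55 and -2.31 on untreated arrays. It was higher on each leaf-treated array, by 0.31 on average (exact permutation test, two-sided, p = 0.1, adjusted p = 0.2 over the 4 ratios). As FOXA3 was higher and FOXA1 lower on every leaf-treated array, this ratio had to separate the groups. Its p was thus fixed in advance and adds nothing to the values of the genes. The ratio of FOXA2 to FOXA1 was also higher on each leaf-treated array, by 0.19 (exact permutation p = 0.1, adjusted p = 0.2). With 3 arrays against 3, 0.1 is the smallest p this test can give, so neither ratio could reach 0.05. For FOXA3 to FOXA2 and for ONECUT1 to ONECUT2 the groups overlapped (exact permutation p = 0.2 and 0.9). After quantile normalization between the arrays, also tried after the values had been seen, the change of FOXA3 to FOXA1 was 0.14 and that of FOXA2 to FOXA1 was 0.17. The change of FOXA3 to FOXA2, 0.12 as deposited, was -0.02 after it, and that of ONECUT1 to ONECUT2, 0.06 as deposited, was 0.16.

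CEBPA was split between the leaf-treated arrays. Its log2 values were 5.03, 4.27 and 4.20 on leaf-treated arrays 1 to 3 and 4.57, 4.54 and 4.55 on untreated arrays. Leaf-treated array 1 was 0.48 above the untreated mean, while arrays 2 and 3 were 0.28 and 0.35 below it. The SD was 0.46 in leaf-treated cells and 0.014 in untreated cells (n = 3 each). The leaf-treated SD was in the upper 2.35% of all clusters, and the untreated SD in the lower 7.45%. In 66.4% of all clusters, and in 5 of the 8 members, the leaf-treated SD was the larger. For CEBPA the log2 fold change was -0.05 (standard error 0.21, 95% interval -0.57 to 0.46, adjusted p = 0.94 from limma), the widest interval of the 8. Without leaf-treated array 1 it was -0.31, at an unadjusted p of 0.0033 and an adjusted p of 0.57 from limma, so that this array decided the size of the change. The same array was the lowest of the leaf-treated arrays for A1CF. The cluster of CEBPA is annotated with 4 RefSeq mRNAs of an intronless gene.

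**Figure D2:**
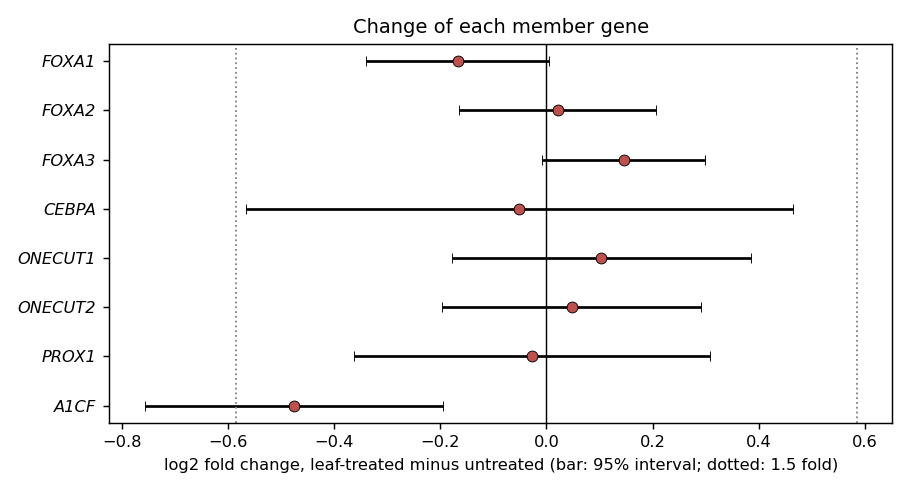
Log2 fold change of each gene in leaf-treated against untreated cells, with the 95% interval from limma (horizontal bars), and dotted lines at 1.5 fold. The interval of A1CF, -0.76 to -0.19, lies on 1 side of 0, and that of CEBPA is the widest.

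PROX1, which in the adult liver is a corepressor of several nuclear receptors, was split in another way. It had log2 values of 7.86, 8.31 and 7.82 on leaf-treated arrays and of 8.11, 7.94 and 8.02 on untreated arrays. Leaf-treated array 2 was 0.28 above the untreated mean, and arrays 1 and 3 were 0.17 and 0.20 below it. The log2 fold change was -0.03 (standard error 0.14, 95% interval -0.36 to 0.31, adjusted p = 0.95 from limma). Without leaf-treated array 2, the array nearest to the untreated ones over all clusters, it was -0.18 at an unadjusted p of 0.0565 and an adjusted p of 0.26 from limma. With array 2 as the only leaf-treated array it is by construction the difference of 0.28 given above.

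The ONECUT genes differed by less than the spread between replicates. ONECUT1 had log2 values of 6.37, 6.03 and 6.22 on leaf-treated arrays and of 6.002, 6.28 and 6.03 on untreated arrays. The highest value was from leaf-treated array 1 and the lowest from untreated array 1, and the groups overlapped. Its log2 fold change was 0.10 (standard error 0.12, 95% interval -0.18 to 0.38). ONECUT2 had log2 values of 4.63, 4.67 and 4.79 on leaf-treated arrays and of 4.64, 4.82 and 4.49 on untreated arrays. The untreated arrays held both its highest and its lowest value. For ONECUT2 the log2 fold change was 0.05 (standard error 0.10, 95% interval -0.20 to 0.29, adjusted p = 0.86 from limma).

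Leaving out arrays and changing the scaling moved these values by unequal amounts. The log2 fold change of A1CF was negative in all 15 alternatives fixed with the design, between -0.56 and -0.35, with unadjusted p between 0.00197 and 0.0222 and adjusted p between 0.10 and 0.82 from limma or the analysis of variance. FOXA1 was also lower in all 15, between -0.23 and -0.06, and FOXA3 higher in all 15, between 0.08 and 0.18. Several of the 15, such as the analysis of variance, refit the same values and leave these fold changes unmoved. As the groups of A1CF, FOXA1 and FOXA3 did not overlap, leaving out or weighting arrays could not turn their signs. Only quantile normalization and centring could have done so, and the count of 15 is no measure of support. Quantile normalization gave -0.06 for FOXA1 and 0.08 for FOXA3, at unadjusted p of 0.555 and 0.267 from limma. Centring on the median lowered every log2 fold change by the same amount. It gave -0.23 and 0.08, at unadjusted p of 0.0238 and 0.304 from limma. The sizes of the FOXA1 and FOXA3 changes, -0.17 and 0.15 as deposited, thus depended on the normalization. A1CF was at -0.37 after quantile normalization and -0.54 after centring. ONECUT1 stayed positive in all 15, between 0.02 and 0.22. The signs of FOXA2, CEBPA, ONECUT2 and PROX1 turned in 3 or 4 of the 15.

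**Figure D3:**
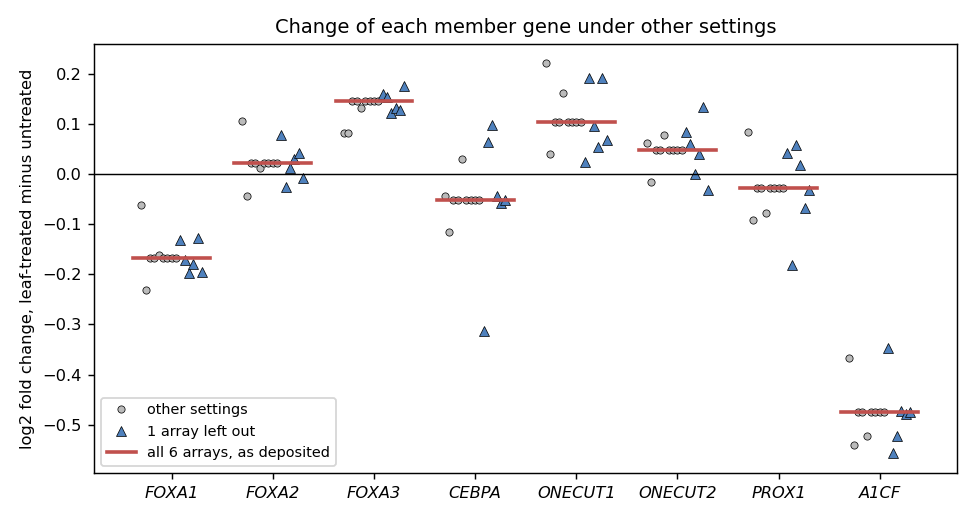
Log2 fold change of each gene with all 6 arrays as deposited (red line), with 1 array left out (triangles) and under the other planned settings (circles). A1CF stays between -0.56 and -0.35, and the marks of FOXA2, CEBPA, ONECUT2 and PROX1 lie on both sides of 0.

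The clusters whose pattern over the 6 arrays was most like that of A1CF were UTP14A, CCNB2 and ORC5. Each cluster was centred on its untreated mean, and the root mean square difference from A1CF was 0.039, 0.053 and 0.061 (log2 units). UTP14A, a protein of ribosome assembly, had log2 values of 5.60, 6.10 and 5.93 on leaf-treated arrays and of 6.40, 6.33 and 6.33 on untreated arrays. CCNB2 is a cyclin of mitosis and ORC5 a subunit of the origin recognition complex, and they had log2 fold changes of -0.50 and -0.49. In all 3, as in A1CF, leaf-treated array 1 was the lowest. They were chosen for this likeness from all clusters, and adjusted p was 0.38 to 0.45 from limma.

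A1CF acts with other proteins on the mRNA of APOB, the structural protein of very low density lipoproteins. A list of 8 genes was read, made up of APOB itself and genes of this editing machinery. Of these, 6 were above background on all arrays and 1 on none. At an unadjusted p under 0.05, 1 was lower and none was higher, where 5.9% and 3.87% of all clusters were. The median log2 fold change was -0.10. SYNCRIP, an RNA-binding protein of the editing complex, had log2 values of 8.31, 8.40 and 8.33 on leaf-treated arrays and of 8.53, 8.67 and 8.45 on untreated arrays. Its groups did not overlap, with a log2 fold change of -0.20 (adjusted p = 0.51 from limma). KHSRP, a splicing regulator found in the same complex, had a log2 fold change of -0.24 with groups that overlapped. APOB itself had 11.17, 11.27 and 11.29 on leaf-treated arrays and 11.30, 11.26 and 11.38 on untreated arrays, with overlapping groups and a log2 fold change of -0.07 (95% interval -0.23 to 0.10). APOBEC1, the deaminase, and RBM47, which can replace A1CF in editing, were in the list but were named after their values had been seen. APOBEC1 was not above background on any leaf-treated array and was above it on 1 untreated array, and RBM47 had a log2 fold change of 0.03. Expression values of this kind do not measure editing.

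Other liver transcription factors outside the nuclear receptors were read beside the members. In this list 18 genes had a tested cluster. At an unadjusted p under 0.05, 1 was lower and 1 was higher, where 5.9% and 3.87% of all clusters were. The median log2 fold change was 0.002. NFIL3, a leucine zipper repressor, had log2 values of 7.17, 7.51 and 7.42 on leaf-treated arrays and of 7.73, 7.76 and 7.73 on untreated arrays. As in A1CF, leaf-treated array 1 was the lowest and the untreated arrays lay close together (log2 fold change -0.37, adjusted p = 0.43 from limma). SOX9, a factor of bile duct cells and liver progenitors, had 6.41, 6.21 and 6.14 on leaf-treated arrays and 5.95, 6.03 and 6.02 on untreated arrays. Its groups did not overlap either (log2 fold change 0.25, adjusted p = 0.51 from limma).

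Liver genes known as targets of FOXA proteins, C/EBPα or HNF-6 were also read. The list was drawn up with earlier results of these data known, and the activity of these factors was not measured. Of 22 listed, 20 had a tested cluster and 7 of these were not above background on any array. At an unadjusted p under 0.05, 1 was lower and 2 were higher, where 5.9% and 3.87% of all clusters were. The median log2 fold change was -0.03. HAMP, which encodes the iron hormone hepcidin, had log2 values of 4.25, 4.82 and 4.45 on leaf-treated arrays and of 6.45, 6.71 and 6.72 on untreated arrays. All leaf-treated arrays were lower, with a log2 fold change of -2.12 (adjusted p = 0.055 from limma). IGFBP1, a secreted carrier of insulin-like growth factors, had 7.45, 7.27 and 7.29 on leaf-treated arrays and 6.27, 6.03 and 6.29 on untreated arrays. All leaf-treated arrays were higher, with a log2 fold change of 1.14 (adjusted p = 0.088 from limma). ALB had log2 values of 10.86, 10.94 and 11.04 on leaf-treated arrays and of 11.04, 10.90 and 11.21 on untreated arrays. These overlapped (log2 fold change -0.11, 95% interval -0.35 to 0.13).

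**Figure D4:**
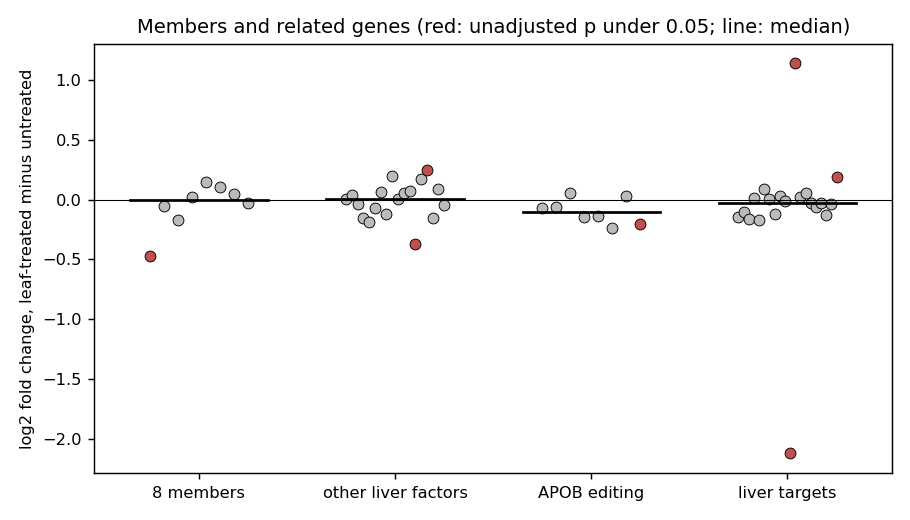
Log2 fold change (vertical axis) of the 8 members, 18 other liver factors, 8 genes of APOB editing and 20 liver targets, with red for an unadjusted p under 0.05 in limma and a line for the median of each list. The medians lie between -0.10 and 0.002, and HAMP and IGFBP1 have values of -2.12 and 1.14.

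Markers of other cell types were read on the same arrays. Bile duct markers had a median log2 fold change of 0.14 over 7 genes, of which 4 were higher and 3 lower in sign. At an unadjusted p under 0.05 in limma, 2 of the 7, KRT19 and SOX9, were higher, where 3.87% of all clusters were. The mean log2 level of the 7 genes was 6.31 to 6.36 on leaf-treated arrays and 6.21 to 6.22 on untreated arrays. The log2 of their summed signal was 11.45 to 11.60 on leaf-treated arrays and 11.49 to 11.63 on untreated arrays. KRT19, a keratin of bile ducts, had 8.06, 8.35 and 7.73 on leaf-treated arrays and 7.42, 7.40 and 7.28 on untreated arrays, with a log2 fold change of 0.67 (adjusted p = 0.38 from limma). EPCAM, SPP1 and CFTR had log2 fold changes of -0.27, -0.04 and -0.08, with groups that overlapped, and CFTR was not above background on any array. Mesenchymal, squamous and leukocyte markers had medians of 0.14, 0.20 and 0.11, with none of their 9, 5 and 6 genes past an unadjusted p of 0.05 and none at 0. In sign, 7, 5 and 4 of them were higher and 2, 0 and 2 lower. Of these lists 2, 1 and 2 genes were not above background on any array, and the mesenchymal and squamous genes averaged 3.79 to 4.18 on leaf-treated arrays and 3.76 to 3.97 on untreated arrays. The leukocyte genes averaged 5.08 to 5.20 on leaf-treated arrays and 5.03 to 5.11 on untreated arrays. The defining leukocyte gene PTPRC was at 2.48 to 2.55 on leaf-treated arrays and 2.50 to 2.64 on untreated arrays, under background. LYZ, CD68 and NKG7 of the same list were above background on all arrays. LYZ, the highest of the 6, was at 10.49 to 10.63 on leaf-treated arrays and 10.33 to 10.55 on untreated arrays. Hepatocyte markers had a median of -0.08 over 16 genes, of which 13 were lower and 3 higher in sign. At an unadjusted p under 0.05 in limma, 1 of them, APOH, was lower and 1, TTR, was higher. Over all clusters these shares were 5.9% and 3.87%. The part of the unequal spread of the arrays, given above, in these shifts was not tested. Nor was the part of these shifts in the values of the 8 members.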

How the data were processed

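Biotin-labelled RNA of HepG2 cells was read on Human Gene 1.0 ST arrays. Log2 values of all 6 arrays were deposited in a single table. Tools listed in the submitters' processing notes are RMA, Partek and GCOS, with no version. RMA includes a background correction, a normalization across arrays and a summary over probes, so small differences can depend on it. Of 33297 rows, 4468 were at 0 on every array and were left out, and 1735 with several symbols and 7803 without one were not tested. Genes were named from the platform annotation. Some listed genes and 1 motif are not reported here.

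The comparison of leaf-treated with untreated arrays used limma 3.58.1 under R 4.3.3 (lmFit and eBayes, no covariate, two-sided), with Benjamini-Hochberg adjustment over 19291 clusters and a threshold of 0.05. The fit was tested on simulated data with equal spread in both groups, unlike these arrays, and no result rests on that test. For a gene with several clusters in a list, the one with the highest mean was used. The number of arrays limits the precision. The genes and lists were chosen with earlier results of these data known. All 8 members are named, with at most 2 genes of smallest p per list, ALB and APOB as defining genes, and the 3 clusters most like a member with an unadjusted p under 0.05. KRT19, EPCAM, SPP1, CFTR, PTPRC, LYZ, CD68, NKG7, APOBEC1 and RBM47 were named after their values were seen.

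Alternatives were other normalizations, a filter on dim clusters, other variance models, array weights, the analysis of variance of the series' design, all rows, cluster means, a replicate block, and each array left out in turn.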

Additional observations from a re-analysis of the deposited data

How the results depend on the processing

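The clusters called at an adjusted p under 0.05 over all genes were 1 as deposited, 8 after quantile normalization, 3 after centring on the median, 4 without dim clusters, 2 with an intensity trend and robust fit, 3 with array weights, 2 with all rows, 2 with cluster means, and 0 in the analysis of variance of the series' design, with the replicate block and when any 1 array was left out. No member was called in any of them. Clusters past an unadjusted p under 0.05 and 1.5 fold were 162, against 101 in the analysis of variance and 250 with all rows, and 111 to 490 with 1 array left out, where the highest count came without leaf-treated array 2. No member passed this rule under any setting.

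At an unadjusted p under 0.05, 2 members rather than 1 were lower after centring (A1CF and FOXA1) and in the analysis of variance (A1CF and FOXA1), and 1 to 2 with 1 array left out (A1CF with CEBPA without leaf-treated array 1, and A1CF with FOXA1 without leaf-treated array 3). FOXA3 was the 1 member higher in the analysis of variance, whose adjusted p was 0.65 for these 3 genes. With leaf-treated array 2 as the only treated array, a setting added after the data had been seen, 0 clusters were called, 2 members were lower (A1CF and CEBPA) and 1 was higher (PROX1) at an unadjusted p under 0.05. In that setting the 3 untreated arrays alone give the spread and the lone array is assumed to vary like them, which for CEBPA means an SD of 0.014, where its leaf-treated SD was 0.46. These counts are therefore no support for a change.

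The log2 fold change turned to -0.043 for FOXA2 and -0.017 for ONECUT2 after centring, to 0.0303 for CEBPA with array weights and to 0.0837 for PROX1 after quantile normalization. As centring lowered all clusters alike, it turned only the smallest positive values of the members. With 1 array left out it ran from -0.0253 to 0.0779 for FOXA2, -0.31 to 0.10 for CEBPA, -0.0319 to 0.13 for ONECUT2 and -0.18 to 0.0586 for PROX1. With leaf-treated array 2 alone it was -0.0733 for ONECUT1 and 0.28 for PROX1, by construction the differences of that array from the untreated mean.

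The median of other liver factors was -0.062 after centring and -0.0284 to 0.0286 with 1 array left out. That of the APOB editing genes was -0.0455 after quantile normalization and -0.17 after centring. That of liver targets was -0.091 after centring and -0.0460 to -0.0122 with 1 array left out. Centring subtracts each array's median, so it lowered every log2 fold change by the same amount, and each list median with it. The cause of the other shifts was not tested.

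The labels do not say whether arrays of the same replicate number were matched. The deviations of same-numbered arrays from their group means correlated at -0.11, -0.18 and 0.12, where those of different numbers gave -0.19 to 0.27. With 3 arrays a group, these values can neither show nor exclude a pairing. With the replicate block the log2 fold change of A1CF was -0.48 at an adjusted p of 0.56 from limma.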
